A study of Mus musculus with 8 samples.

Results

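The Slc25 family is the set of nuclear genes for the mitochondrial carriers, and its RNA levels are described here in 8 mouse liver libraries. Members were taken by name, as every gene of the deposited table whose symbol starts with Slc25a and a digit, and the pseudogene Slc25a5-ps was left out. This gave 47 members among the 56691 genes of the table, and 41 of them passed the filter on low counts together with 14533 genes in all. All mice were wild-type C57BL/6J, 6 weeks old at the start, and ate HFD-CDAA, a high-fat and choline-deficient diet with defined amino acids, for 4 weeks before they were killed after a short fast. In 4 libraries the mice had received plive-Tet1 and in 4 they had received the control plasmid plive-Con, both by hydrodynamic injection into the tail vein, a rapid large-volume injection that takes a plasmid mainly into hepatocytes. The plasmid's promoter and the share of hepatocytes it reached are not stated in these sources. TET1 is a dioxygenase that oxidises methylated cytosine in DNA. The question of the comparison is how liver RNA differs when this enzyme is supplied by a plasmid on a diet that produces steatohepatitis. Groups follow the sample titles and the protocol, which name Tet1, although in the treatment labels plive-Tet1 livers 2, 3 and 4 stand as Tet2, Tet3 and Tet4. The labels do not say that each library came from a separate mouse, so p-values measure the spread between libraries, each of which is called a liver below.

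Mitochondrial carriers are small proteins that sit in the inner mitochondrial membrane and pass metabolites, nucleotides and cofactors between the cytosol and the matrix, usually as an exchange of one compound for another. In hepatocytes they serve ATP export, the urea cycle, the malate-aspartate shuttle, citrate export for lipid synthesis, fatty acid oxidation and gluconeogenesis, all of which divide their steps between the matrix and the cytosol. A few members lie in other membranes, such as Slc25a17 in peroxisomes and Slc25a46 in the outer mitochondrial membrane.

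Library totals ranged from 15885113 to 19850800 counts. The gene carried by the plasmid was at the limit of detection, with 9, 8, 12 and 5 counts of Tet1 in the libraries labelled plive-Tet1, against 1, 9, 6 and 5 counts in those labelled plive-Con. A higher level of Tet1 RNA was therefore not detectable at this depth, and every direction below is between libraries so labelled. The sources do not state whether reads from the plasmid were counted on this gene. The 10 hepatocyte markers summed to between 36263 and 46703 FPKM in the plive-Tet1 livers, against 39388 to 46314 FPKM in the plive-Con livers, so the labelled tissue was seen in all 8 libraries. FPKM is the count divided by the gene's exonic length and the library's total, and it is the scale used wherever levels of different genes are set side by side. In whole liver, fewer cells of a type and less RNA per cell cannot be told apart.

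Summed over all members, the family added up to 1167, 1345, 1461 and 1257 FPKM in plive-Tet1 livers 1 to 4, against 1249, 1191, 1383 and 1769 FPKM in plive-Con livers 1 to 4. The highest sum was that of plive-Con 4, and the other 7 livers lay between 1167 and 1461 FPKM with both groups mixed. The means were 1307 ± 125 FPKM with plive-Tet1 and 1398 ± 260.3 FPKM with plive-Con (SD, n = 4 each, exact permutation p = 0.629, two-sided, smallest possible p 0.0286). As a share of all counts, the family took 0.439% ± 0.0409 with plive-Tet1 and 0.472% ± 0.102 with plive-Con (exact permutation p = 0.714). The difference was smaller than the spread between livers on either scale.

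A few carriers made up most of that sum. Of the 47 members, 4 averaged at least 100 FPKM over the 8 livers, 19 at least 10 FPKM and 35 at least 1 FPKM. The 3 most abundant took between 46.8% and 51.4% of the family's FPKM in each liver, and the 10 most abundant took between 78.6% and 81.5%. By role list, the carnitine-acylcarnitine and related carriers held 19.3% of the summed FPKM and the adenine nucleotide exchangers 18.3%. The glutathione and S-adenosylmethionine carriers held 15.8%, and the citrate, dicarboxylate and oxoglutarate carriers 14.2%. The 2 iron carriers held 1.16%. Within the carnitine-related list, Slc25a47 alone held 16.2% of the family's FPKM and the carnitine-acylcarnitine carrier Slc25a20 held 2.22%. The share of this list was therefore mostly that of Slc25a47 and is not a measure of carnitine transport.

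**Figure D1:**
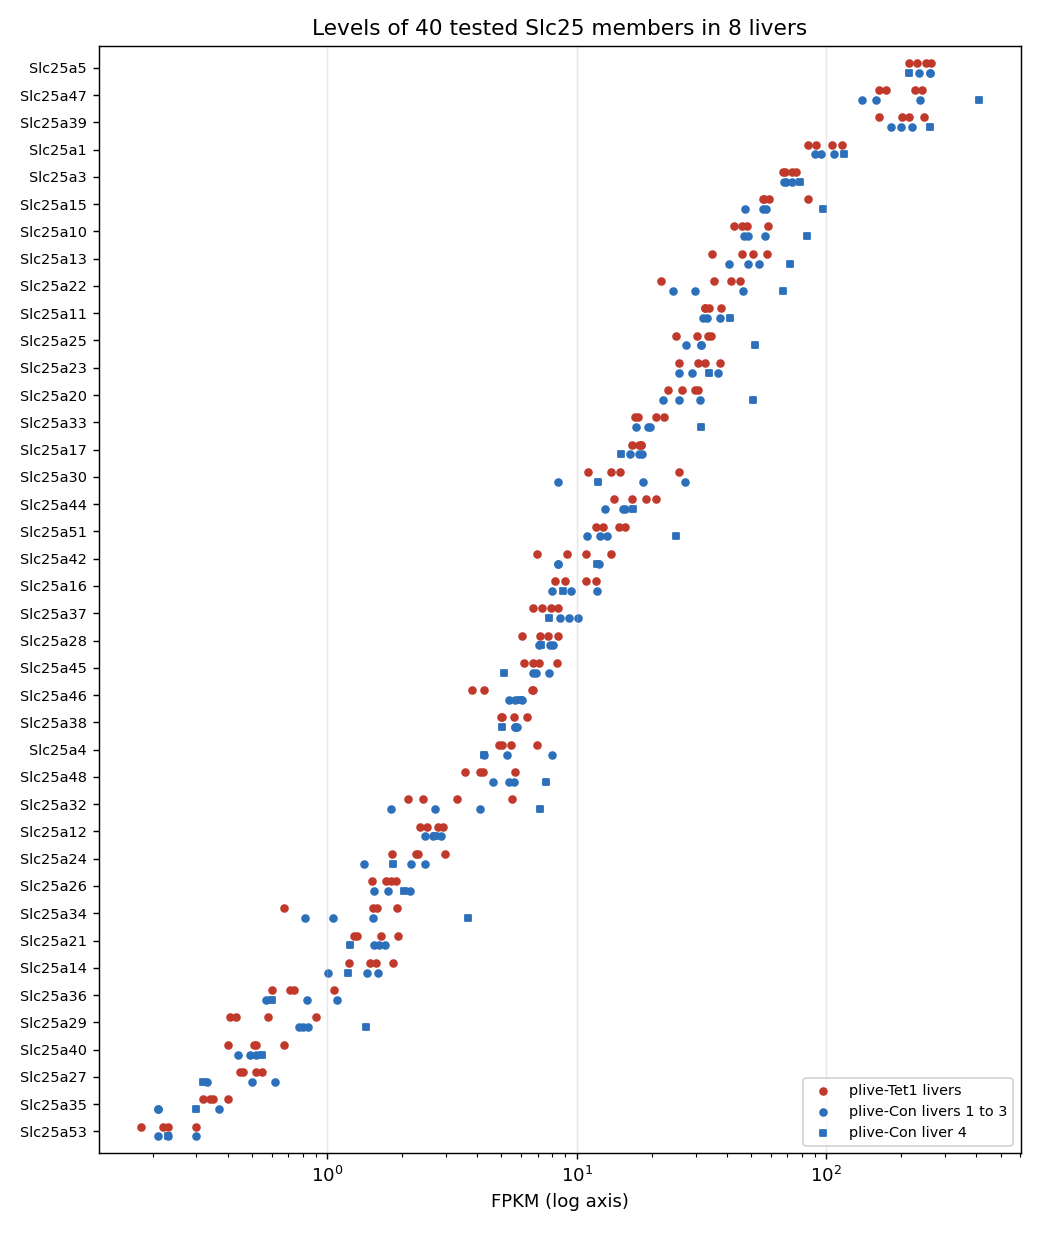
FPKM (log axis) of 40 tested Slc25 members in each of the 8 livers, with plive-Tet1 livers and plive-Con livers as separate points for each member. The members run from Slc25a5 (241 FPKM on average), Slc25a47 (219 FPKM) and Slc25a39 (211 FPKM) down to members under 1 FPKM, and the points of the 2 groups overlap for every member drawn.

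Across the family, no member passed the test of plive-Tet1 against plive-Con livers. Fold changes are given on the log2 scale as plive-Tet1 livers over plive-Con livers, from edgeR's quasi-likelihood test on counts. The standard error (SE) was derived from that test, as the absolute log2 fold change over the square root of its F statistic. The 95% intervals were built from this SE with a t distribution. In edgeR, with p-values adjusted by Benjamini-Hochberg over 14533 genes, 0 of 41 members had an adjusted p under 0.05, and neither did any other gene (0 called, 0%). At an unadjusted p under 0.05 there were 3 members (7.32%), Slc25a37, Slc25a29 and Slc25a48, all lower with plive-Tet1, beside 591 of all tested genes (4.07%). DESeq2 called 0 members and 11 genes in all, and limma's voom called 0 of either. The groups of 0 members were free of overlap in counts scaled to library size (CPM), beside 331 of all tested genes (2.28%). The median absolute log2 fold change of the members was 0.122, beside 0.125 for all tested genes, and the members' median standard error was 0.193.

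The signs were uneven. A log2 fold change below 0 was found for 31 of 41 members (75.6%), beside 48% of all tested genes, and the median was -0.087 for the members and 0.008 for all tested genes. With library totals in place of TMM scaling 28 members (68.3%) lay below 0 beside 38.3% of all genes, and with DESeq2's size factors 33 (80.5%) beside 51%. Without plive-Con 4 the count was 25 of 41 (61%), beside 48.4% of all genes, and the members' median was -0.019. Members vary together between livers and are not independent, so these counts describe 8 livers and carry no test.

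**Figure D2:**
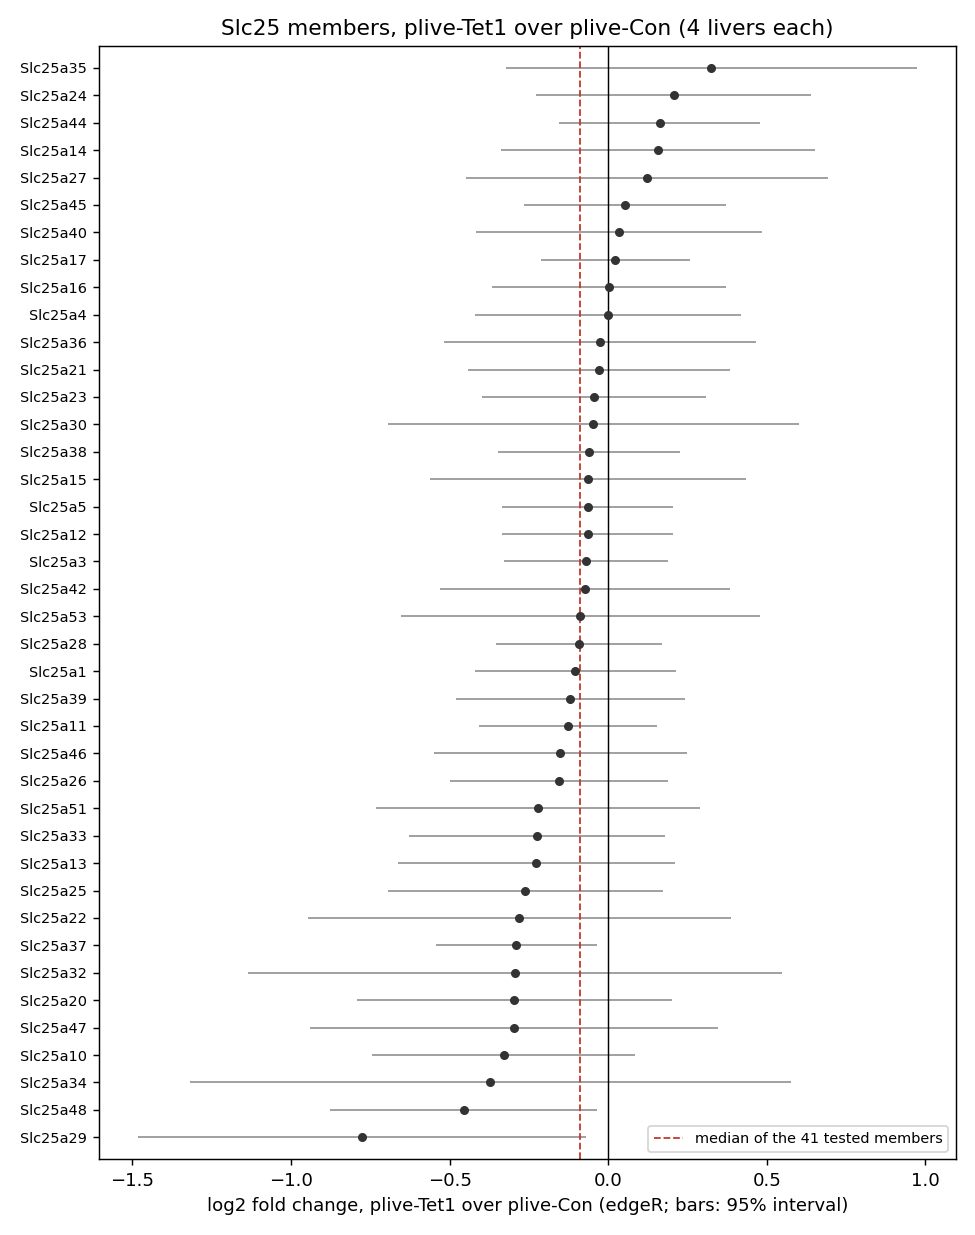
Fold changes (log2) of 40 of the 41 tested Slc25 members between plive-Tet1 and plive-Con livers, in order of size. Points are edgeR's estimates, bars are 95% intervals derived from its F statistic, and a dashed line marks the members' median of -0.087. Of 40 points 30 lie left of 0, and the bars of Slc25a29, Slc25a48 and Slc25a37 end left of 0 before any adjustment.

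The most abundant member was Slc25a5 (ENSMUSG00000016319, GRCm39 chromosome X, 36059304 to 36062460, plus strand), which encodes adenine nucleotide translocase 2, the exchanger of matrix ATP for cytosolic ADP in most tissues. It had 214, 232, 262 and 251 FPKM in the plive-Tet1 livers, against 261, 261, 235 and 215 FPKM in the plive-Con livers, with livers listed 1 to 4 here and throughout. The groups overlapped over nearly their whole range, and Slc25a5 varied by a coefficient of variation of 8.40% over the 8 livers. Its log2 fold change was -0.06 ± 0.12 (SE) by edgeR's quasi-likelihood test, with a 95% interval from -0.33 to 0.21. Slc25a4, the isoform of heart and skeletal muscle, averaged 5.57 ± 0.929 FPKM with plive-Tet1 and 5.43 ± 1.76 FPKM with plive-Con (SD, n = 4 each), and Slc25a31, the testis isoform, had 6 counts in all 8 libraries. Slc25a3, the phosphate carrier that brings in the phosphate for ATP synthesis, had 68.5, 73.0, 75.4 and 67.0 FPKM in the plive-Tet1 livers, against 72.8, 69.0, 67.8 and 78.2 FPKM in the plive-Con livers. It was the steadiest of the tested members, with a coefficient of variation of 5.63%, and its log2 fold change was -0.07 ± 0.12 (edgeR, SE).

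The next member was Slc25a47 (ENSMUSG00000048856, GRCm39 chromosome 12, 108801972 to 108822741, plus strand), a carrier found mainly in hepatocytes. It had 163, 227, 241 and 173 FPKM in the plive-Tet1 livers, against 159, 139, 239 and 408 FPKM in the plive-Con livers. The highest liver and the lowest were both plive-Con livers, a 2.93-fold span, and all plive-Tet1 livers lay between them. Its log2 fold change was -0.30 ± 0.30 (edgeR, SE, 95% interval -0.94 to 0.35), and without plive-Con 4 it was 0.12, so the sign rested on that library. Slc25a39 (ENSMUSG00000018677, GRCm39 chromosome 11, 102293811 to 102298772, minus strand), which brings glutathione into mitochondria, had 201, 214, 248 and 164 FPKM in the plive-Tet1 livers, against 199, 183, 221 and 261 FPKM in the plive-Con livers. Its groups overlapped, with the lowest value in plive-Tet1 4 and the highest in plive-Con 4, and the log2 fold change was -0.12 ± 0.17 (edgeR, SE). Slc25a40, a close relative that also carries glutathione, averaged 0.525 ± 0.111 FPKM with plive-Tet1 and 0.50 ± 0.0469 FPKM with plive-Con (SD, n = 4 each), and Slc25a26, which imports S-adenosylmethionine, averaged 1.73 ± 0.164 FPKM with plive-Tet1 and 1.87 ± 0.277 FPKM with plive-Con. Slc25a26, with 1239 counts in all libraries, lies over Lrig1 on the other strand, which had 3891. Without a stated strand setting, reads from the stretch that they share cannot be told apart.

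Among the citrate, dicarboxylate and oxoglutarate carriers, 4 of 4 had log2 fold changes below 0 (3 of 4 with library totals in place of TMM scaling), and 0 passed the test. Slc25a1, which exports citrate as the source of cytosolic acetyl-CoA for lipid synthesis, had 91.5, 106, 116 and 84.9 FPKM in the plive-Tet1 livers, against 95.6, 89.8, 108 and 118 FPKM in the plive-Con livers. Its values were mixed between the groups, and the log2 fold change was -0.10 ± 0.15 (edgeR, SE). For Slc25a10, which exchanges malate and succinate for phosphate, the values were 45.9, 48.3, 58.6 and 42.8 FPKM in the plive-Tet1 livers, against 47.0, 48.8, 56.8 and 83.9 FPKM in the plive-Con livers. Only plive-Con 4 stood clear of the other 7 livers for Slc25a10, and the log2 fold change was -0.33 ± 0.19 (edgeR, SE, unadjusted p = 0.111). Slc25a11, the oxoglutarate-malate exchanger of the malate-aspartate shuttle, had 32.7, 33.8, 37.9 and 32.8 FPKM in the plive-Tet1 livers, against 33.2, 32.2, 37.5 and 41.3 FPKM in the plive-Con livers. It varied little (coefficient of variation 9.42%), and its log2 fold change was -0.13 ± 0.13 (edgeR, SE). Slc25a11 lies over Rnf167, a gene on the other strand with 8075 counts beside its own 10754. Since the strand setting is not given, reads from the stretch that the 2 share cannot be told apart. Slc25a21, the carrier of oxoadipate in lysine breakdown, averaged 1.54 ± 0.30 FPKM with plive-Tet1 and 1.52 ± 0.20 FPKM with plive-Con (SD, n = 4 each).

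Aspartate and glutamate carriers were represented mainly by Slc25a13, or citrin, the liver isoform that exports aspartate in the malate-aspartate shuttle. Slc25a13 had 35.0, 46.2, 50.9 and 58.1 FPKM in the plive-Tet1 livers, against 48.6, 40.7, 53.6 and 71.5 FPKM in the plive-Con livers. The lowest liver was plive-Tet1 1 and the highest was plive-Con 4, with the other 6 mixed, and the log2 fold change was -0.23 ± 0.20 (edgeR, SE). Its paralogue Slc25a12, or aralar, the isoform of brain and muscle, averaged 2.64 ± 0.256 FPKM with plive-Tet1 and 2.68 ± 0.157 FPKM with plive-Con (SD, n = 4 each). Slc25a22, which brings glutamate and a proton into the matrix, had 21.8, 35.7, 45.4 and 41.7 FPKM in the plive-Tet1 livers, against 29.9, 24.3, 46.5 and 67.4 FPKM in the plive-Con livers. Slc25a22 spanned 3.10-fold between livers, with the lowest value in plive-Tet1 1 and the highest in plive-Con 4, and its log2 fold change of -0.28 ± 0.31 (edgeR, SE) was 0.054 without plive-Con 4. Its paralogue Slc25a18 had 29 counts in all libraries and lies over Atp6v1e1 on the other strand, which had 23495.

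Among the amino acid carriers, Slc25a15, which exchanges cytosolic ornithine for citrulline in the urea cycle, was the most abundant. It had 59.0, 56.2, 55.6 and 84.6 FPKM in the plive-Tet1 livers, against 57.4, 47.3, 55.9 and 96.9 FPKM in the plive-Con livers. One liver of each group, replicate 4 in both, lay far above the other 6, which sat between 47.3 and 59.0 FPKM. The log2 fold change was -0.06 ± 0.23 (edgeR, SE), and its sign turned both without plive-Con 4 (0.22) and on the log2(FPKM + 0.5) scale (0.022). Slc25a44, a carrier of branched-chain amino acids, had 14.2, 19.0, 20.8 and 16.7 FPKM in the plive-Tet1 livers, against 15.7, 13.1, 15.4 and 16.8 FPKM in the plive-Con livers. The highest values were those of plive-Tet1 2 and 3, the groups overlapped, and the log2 fold change was 0.16 ± 0.15 (edgeR, SE, unadjusted p = 0.287), the smallest p among members with higher means with plive-Tet1. Slc25a38, which supplies glycine for heme synthesis, averaged 5.48 ± 0.63 FPKM with plive-Tet1 and 5.53 ± 0.344 FPKM with plive-Con (SD, n = 4 each).

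Slc25a29 (ENSMUSG00000021265, GRCm39 chromosome 12, 108791799 to 108801809, minus strand) carries basic amino acids such as arginine and lysine, and had the lowest log2 fold change of the family. It had 0.41, 0.58, 0.90 and 0.43 FPKM in the plive-Tet1 livers, against 0.84, 0.77, 0.80 and 1.43 FPKM in the plive-Con livers, from 18 to 46 counts in a plive-Tet1 library and 32 to 65 counts in a plive-Con library. Of the plive-Tet1 livers 3 lay below every plive-Con liver, plive-Tet1 3 lay above 3 of the 4, and plive-Con 4 was far above the rest of its group. The log2 fold change was -0.78 ± 0.33 (edgeR, SE, 95% interval -1.48 to -0.07, unadjusted p = 0.0338, adjusted p = 1.00, exact permutation p = 0.114). Without plive-Con 4 the log2 fold change was -0.50 and the unadjusted edgeR p was 0.142, and the p was also above 0.05 without plive-Tet1 1, 2 or 4.

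The carnitine-related list held Slc25a47, Slc25a20, Slc25a48 and Slc25a45. Slc25a20, which exchanges acylcarnitine for free carnitine and so brings fatty acids to beta oxidation, had 23.1, 29.9, 26.4 and 30.6 FPKM in the plive-Tet1 livers, against 22.1, 25.7, 31.2 and 50.8 FPKM in the plive-Con livers. The lowest and the highest values of Slc25a20 were both in plive-Con livers, and its log2 fold change of -0.30 ± 0.23 (edgeR, SE, unadjusted p = 0.220) was 0.019 without plive-Con 4. Slc25a48 (ENSMUSG00000021509, GRCm39 chromosome 13, 56586168 to 56622052, plus strand), which takes choline into mitochondria, had 4.20, 3.57, 5.65 and 4.09 FPKM in the plive-Tet1 livers, against 5.35, 4.61, 5.62 and 7.57 FPKM in the plive-Con livers. For Slc25a48, 3 plive-Tet1 livers lay below all plive-Con livers and plive-Tet1 3 lay above 3 of them. The log2 fold change was -0.46 ± 0.19 (edgeR, SE, 95% interval -0.88 to -0.03, unadjusted p = 0.0359, adjusted p = 1.00, exact permutation p = 0.114). Without plive-Con 4 it was -0.29 with an unadjusted edgeR p of 0.140, and the p was also above 0.05 without plive-Tet1 1, 2 or 4. Slc25a45 had 6.15, 7.04, 8.35 and 6.71 FPKM in the plive-Tet1 livers, against 6.89, 7.73, 6.69 and 5.13 FPKM in the plive-Con livers, and the groups overlapped, with the highest value in plive-Tet1 3 and the lowest in plive-Con 4 and a log2 fold change of 0.05 ± 0.15 (edgeR, SE).

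The iron carriers are Slc25a37, or mitoferrin 1, the main iron importer of developing red cells, and Slc25a28, or mitoferrin 2, its relative in other tissues. Slc25a37 (ENSMUSG00000034248, GRCm39 chromosome 14, 69479297 to 69522561, minus strand) had 7.27, 7.88, 8.42 and 6.70 FPKM in the plive-Tet1 livers, against 9.35, 10.2, 8.61 and 7.74 FPKM in the plive-Con livers. The 3 highest livers were plive-Con livers, and plive-Con 4 lay below plive-Tet1 2 and 3. With a log2 fold change of -0.29 ± 0.12 (edgeR, SE, 95% interval -0.54 to -0.04), Slc25a37 had the smallest unadjusted p of the family, 0.0285, an adjusted p of 1.00 and an exact permutation p of 0.0857. Without plive-Con 4 the log2 fold change was -0.34 with an unadjusted edgeR p of 0.0130, whereas the p was above 0.05 without plive-Tet1 1 or 4 and without plive-Con 1 or 2. The 7 red cell markers summed to 332, 209, 204 and 216 FPKM in the plive-Tet1 livers. In the plive-Con livers they summed to 443, 505, 277 and 365 FPKM. plive-Con 2 was highest for the markers as for Slc25a37, but the order of other livers differed. plive-Con 4 lay above every plive-Tet1 liver for the markers and below plive-Tet1 2 and 3 for Slc25a37. Globin genes made up most of the marker sum. Alas2, on the same list, averaged 26.5 ± 5.15 FPKM with plive-Tet1 and 21.3 ± 5.62 FPKM with plive-Con (SD, n = 4 each), so its means lay in the opposite order to the sum. Slc4a1 was at most 0.10 FPKM in any liver, and the part of red cells in the Slc25a37 values was not tested. Slc25a28 averaged 7.32 ± 1.02 FPKM with plive-Tet1 and 7.54 ± 0.478 FPKM with plive-Con (SD, n = 4 each), with a log2 fold change of -0.09 ± 0.12 (edgeR, SE).

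The calcium-regulated carriers exchange ATP-magnesium for phosphate and so set the adenine nucleotide pool of the matrix. Slc25a25 had 25.1, 30.4, 34.5 and 33.5 FPKM in the plive-Tet1 livers, against 31.6, 27.5, 31.6 and 51.7 FPKM in the plive-Con livers. Apart from plive-Con 4 the 7 livers of Slc25a25 lay between 25.1 and 34.5 FPKM, and the log2 fold change was -0.26 ± 0.20 (edgeR, SE, unadjusted p = 0.217). Slc25a24 had 2.96, 2.27, 1.83 and 2.32 FPKM in the plive-Tet1 livers, against 2.46, 2.18, 1.41 and 1.84 FPKM in the plive-Con livers, with a log2 fold change of 0.21 ± 0.20 (edgeR, SE, unadjusted p = 0.321). Its groups overlapped from 1.83 to 2.46 FPKM. Slc25a23 averaged 31.6 ± 4.83 FPKM with plive-Tet1 and 31.4 ± 4.94 FPKM with plive-Con (SD, n = 4 each), and Slc25a41 had no count in any library.

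Cofactor and other nucleotide carriers were mostly at middle levels. Slc25a51, which brings NAD into mitochondria, had 12, 12.7, 14.8 and 15.6 FPKM in the plive-Tet1 livers, against 12.4, 11.1, 13.3 and 25.1 FPKM in the plive-Con livers. Slc25a32, a folate carrier, had 3.31, 2.43, 2.11 and 5.51 FPKM in the plive-Tet1 livers, against 1.81, 2.71, 4.09 and 7.14 FPKM in the plive-Con livers. For both members plive-Con 4 was the highest liver and plive-Tet1 4 the next, the other livers lay mixed, and the log2 fold changes were -0.22 ± 0.24 and -0.29 ± 0.39 (edgeR, SE). Slc25a33, a pyrimidine nucleotide carrier, averaged 19.5 ± 2.55 FPKM with plive-Tet1 and 21.9 ± 6.43 FPKM with plive-Con (SD, n = 4 each), its relative Slc25a36 averaged 0.78 ± 0.202 FPKM with plive-Tet1 and 0.775 ± 0.246 FPKM with plive-Con, and Slc25a42, a carrier of coenzyme A, averaged 10.2 ± 2.84 FPKM with plive-Tet1 and 10.3 ± 2.17 FPKM with plive-Con. The peroxisomal Slc25a17 averaged 17.7 ± 0.73 FPKM with plive-Tet1 and 16.9 ± 1.49 FPKM with plive-Con, and Slc25a16 averaged 10.0025 ± 1.73 FPKM with plive-Tet1 and 9.61 ± 1.76 FPKM with plive-Con.

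The list of phosphate and uncoupling-related carriers, 4 tested genes with Slc25a3 among them, had a median log2 fold change of 0.038, and of -0.0037 without plive-Con 4. Its other members are known only in part and were at lower levels. Slc25a30 varied the most of these, with 14.97, 25.8, 13.8 and 11.1 FPKM in the plive-Tet1 livers, against 18.4, 27.3, 8.42 and 12.2 FPKM in the plive-Con livers. Replicate 2 was the highest liver of each group for Slc25a30. Slc25a14 had 1.57, 1.84, 1.22 and 1.49 FPKM in the plive-Tet1 livers, against 1.60, 1.01, 1.45 and 1.21 FPKM in the plive-Con livers, with a log2 fold change of 0.16 ± 0.23 (edgeR, SE). For Slc25a27 the values were 0.52, 0.55, 0.46 and 0.45 FPKM in the plive-Tet1 livers, against 0.50, 0.62, 0.33 and 0.32 FPKM in the plive-Con livers, with a log2 fold change of 0.12 ± 0.26 (edgeR, SE). Both overlapped between the groups.

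Of the less characterised members, Slc25a34 had 0.67, 1.59, 1.9 and 1.53 FPKM in the plive-Tet1 livers, against 0.82, 1.06, 1.53 and 3.68 FPKM in the plive-Con livers. This was the most variable tested member, with a coefficient of variation of 58.9%, and the highest liver was plive-Con 4. Slc25a35 had 0.34, 0.35, 0.40 and 0.32 FPKM in the plive-Tet1 livers, against 0.37, 0.21, 0.21 and 0.30 FPKM in the plive-Con livers, and its log2 fold change of 0.33 ± 0.30 (edgeR, SE, unadjusted p = 0.295) was the highest of the family. All 4 plive-Tet1 livers were above 3 plive-Con livers and plive-Con 1 lay among them. Slc25a46, which acts in mitochondrial shape at the outer membrane, averaged 5.34 ± 1.54 FPKM with plive-Tet1 and 5.75 ± 0.315 FPKM with plive-Con (SD, n = 4 each), and Slc25a53 averaged 0.233 ± 0.0499 FPKM with plive-Tet1 and 0.242 ± 0.0395 FPKM with plive-Con. Slc25a43 had 56 counts in all 8 libraries, the ornithine carrier paralogue Slc25a2 had 19 and Slc25a54 had none. With Slc25a18, Slc25a31 and Slc25a41 they form the 6 members with too few counts to test.

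The pattern that set livers apart ran through 1 control library. In CPM, plive-Con 4 was the highest of the 8 livers for 18 of 41 members (43.9%), and for 18.2% of all tested genes. It was the lowest for 5 members (12.2%), and for 19.8% of all tested genes. The lowest liver was plive-Tet1 1 for 10 members (24.4%, beside 11.8% of all tested genes) and plive-Con 2 for 10 others (24.4%, beside 12.9%). The first principal component of the members' log2 CPM held 60.2% of their variance, with plive-Con 4 at one end (3.31) and plive-Tet1 1 (-1.80) and plive-Con 2 (-1.67) at the other. Over all tested genes the first component held 27.0% of the variance, and its ends were not particular to the carriers. They were again plive-Con 4 (52.0) against plive-Tet1 1 (-19.0) and plive-Con 2 (-14.6).

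**Figure D3:**
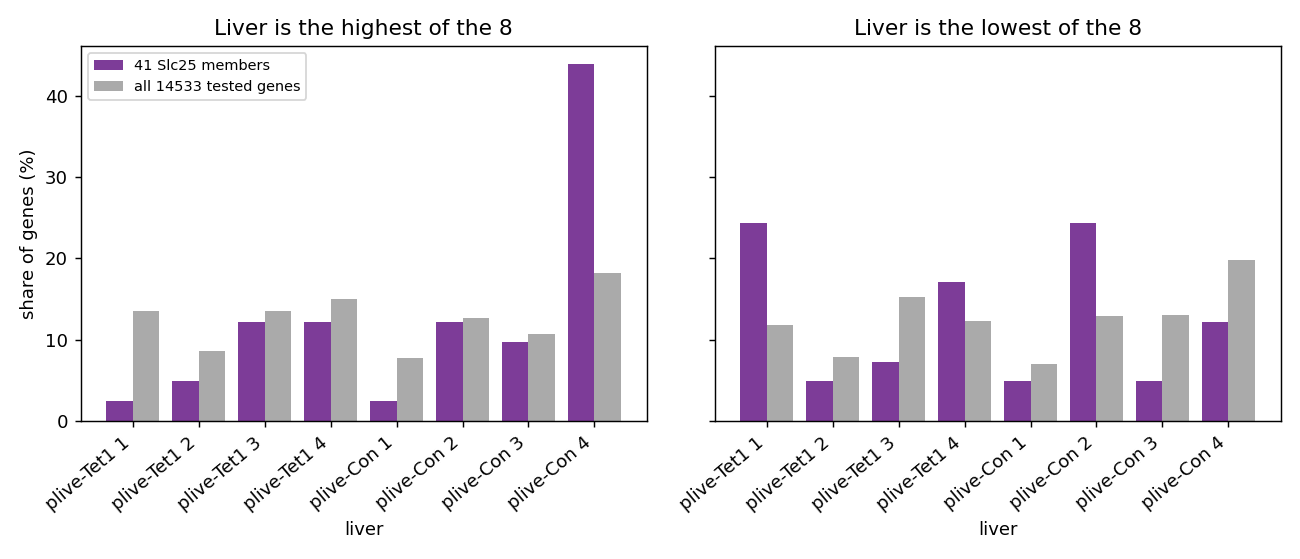
Share of genes (%) for which each liver is the highest (left panel) or the lowest (right panel) of the 8 in CPM, for the 41 tested Slc25 members and for all 14533 tested genes. plive-Con 4 is highest for 43.9% of the members and 18.2% of all genes, and plive-Tet1 1 and plive-Con 2 are each lowest for 24.4% of the members.

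The members highest in plive-Con 4 were spread over most roles. They were 3 of 4 carnitine-related carriers, 3 of 4 citrate, dicarboxylate and oxoglutarate carriers, 2 of 3 aspartate and glutamate carriers, 2 of 3 glutathione and S-adenosylmethionine carriers, 2 of 4 amino acid carriers, 3 of 8 cofactor carriers, 1 of 3 calcium-regulated carriers, 1 of 4 phosphate and uncoupling-related carriers and 1 of 4 less characterised members. Neither tested adenine nucleotide exchanger and neither iron carrier was among them. Over the mean of the other 3 plive-Con livers, the FPKM in plive-Con 4 was 3.24 times as high for Slc25a34, 2.49 times for Slc25a32, 2.28 times for Slc25a47, 2.06 times for Slc25a51, 2.01 times for Slc25a22 and 1.93 times for Slc25a20, and at the low end 1.12 times for Slc25a3. These members were singled out after their values were seen. Among the members lowest in plive-Con 4 were Slc25a4, Slc25a17, Slc25a27 and Slc25a45.

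The B and plasma cell sum and the adipose sum, which was Cidec alone, were also highest in this liver. The other marker sums were not. The 5 B and plasma cell markers summed to 88.3 FPKM in plive-Con 4, mostly Igkc, against 13.0 to 35.0 FPKM in the plive-Tet1 livers and 15.2 to 59.4 FPKM in the other plive-Con livers. Igkc and Jchain of this list were highest in plive-Con 4, and Cd79a, Cd79b and Ms4a1 were not (1.62, 1.97 and 0.06 FPKM there). The Ms4a1 value was the lowest of all livers. Of the 4 adipose markers Adipoq, Plin1 and Lep were at 0 in all livers, and Cidec was 52.3 FPKM in plive-Con 4, against 19.5 to 37.4 FPKM in the plive-Tet1 livers and 12.8 to 24.5 FPKM in the other plive-Con livers. The hepatocyte sum of plive-Con 4, 43378 FPKM, was within the range of the other livers. Mitochondrially encoded genes took 3.31% of its counts, in a range from 3.23% to 8.63% over all livers. The part of these in the carrier values was not tested.

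**Figure D4:**
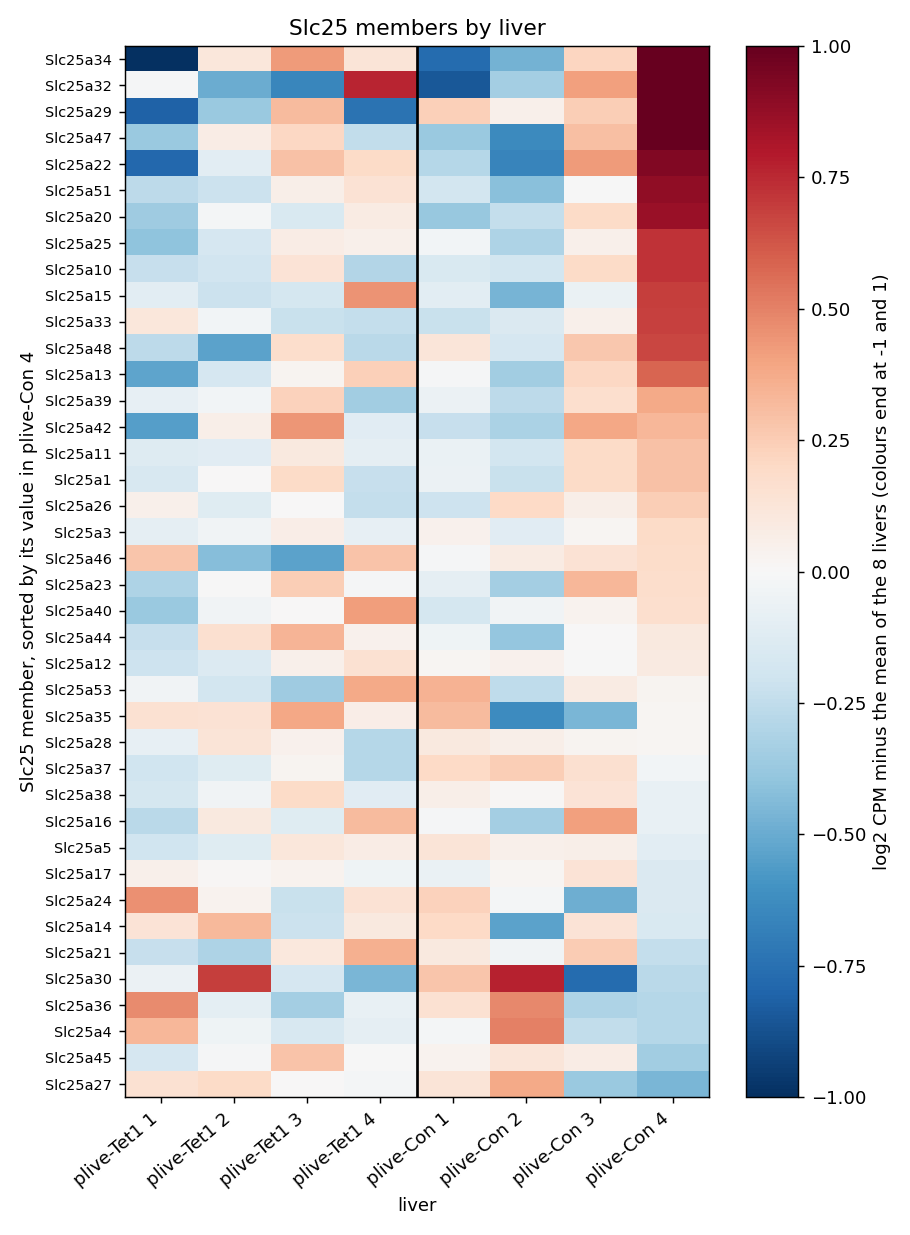
Log2 CPM of 40 tested Slc25 members in each of the 8 livers, as the deviation from each member's mean over the livers, with plive-Tet1 livers left of plive-Con livers. The column of plive-Con 4 holds the highest value of 18 members, and the columns of plive-Tet1 1 and plive-Con 2 hold the lowest value of 10 members each.

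Promoter sequence is shown for members that were high together in plive-Con 4, and for Slc25a5, the most abundant member, which was not. Of the 6 members with the highest ratio, those with a single promoter in the RefSeq table are Slc25a34, Slc25a47 and Slc25a20, and Slc25a29 is added as the member with the lowest log2 fold change. Each line gives the 250 bases before the gene's start, 5′ to 3′ on the gene's strand, from RefSeq on GRCm38.p6, an older build than that of the deposited coordinates. The windows are chr4:141623835-141624084 (minus strand) for Slc25a34, chr12:108850879-108851128 (plus strand) for Slc25a47, chr9:108661886-108662135 (plus strand) for Slc25a20, chr12:108835877-108836126 (minus strand) for Slc25a29 and chrX:36795347-36795596 (plus strand) for Slc25a5. Capitals mark matches on either strand to 5 short motifs. AGGTCA is the half-site that nuclear receptors bind, and CACGTG is an E-box. The CCAAT box is named by its letters. The TATA box was searched as TATAAA, and the GC box, which Sp1-type factors bind, as GGGCGG.
Slc25a34: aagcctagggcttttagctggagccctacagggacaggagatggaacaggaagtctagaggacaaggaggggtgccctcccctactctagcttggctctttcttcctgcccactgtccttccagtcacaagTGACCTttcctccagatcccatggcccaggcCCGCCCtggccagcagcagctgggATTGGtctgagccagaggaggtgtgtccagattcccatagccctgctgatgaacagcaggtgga
Slc25a47: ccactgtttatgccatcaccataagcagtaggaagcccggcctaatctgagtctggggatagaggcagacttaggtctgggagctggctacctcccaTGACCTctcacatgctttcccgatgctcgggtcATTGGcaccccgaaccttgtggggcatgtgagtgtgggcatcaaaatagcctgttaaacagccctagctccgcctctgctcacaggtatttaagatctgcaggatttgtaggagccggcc
Slc25a20: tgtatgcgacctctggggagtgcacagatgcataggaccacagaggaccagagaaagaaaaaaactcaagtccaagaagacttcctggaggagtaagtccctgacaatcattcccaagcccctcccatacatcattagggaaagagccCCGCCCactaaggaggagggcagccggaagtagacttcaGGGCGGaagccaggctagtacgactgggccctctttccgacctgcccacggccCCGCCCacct
Slc25a29: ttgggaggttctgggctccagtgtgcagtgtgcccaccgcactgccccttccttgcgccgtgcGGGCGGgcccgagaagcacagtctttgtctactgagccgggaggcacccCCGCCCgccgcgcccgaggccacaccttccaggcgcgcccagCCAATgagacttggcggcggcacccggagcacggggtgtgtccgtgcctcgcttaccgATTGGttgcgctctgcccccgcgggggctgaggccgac
Slc25a5: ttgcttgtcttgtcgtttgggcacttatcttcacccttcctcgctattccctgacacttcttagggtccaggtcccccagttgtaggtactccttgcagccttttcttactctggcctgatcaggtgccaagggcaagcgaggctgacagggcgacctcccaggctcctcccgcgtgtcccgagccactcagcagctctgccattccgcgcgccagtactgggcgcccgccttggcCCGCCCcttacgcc

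Slc25a34 and Slc25a47 each hold 1 nuclear receptor half-site and 1 CCAAT box, and Slc25a34 also 1 GC box. Slc25a20 holds 3 GC boxes and none of the other motifs, Slc25a29 holds 2 GC boxes and 2 CCAAT boxes, and Slc25a5 holds 1 GC box. The table had 46 promoters for 36 members, some of them overlapping starts of 1 gene. GC boxes were in 69.6% of these and in 42.6% of the 21262 protein-coding promoters of the table, CCAAT boxes in 45.7% and 35.4%, E-boxes in 17.4% and 6.63%, half-sites in 8.70% and 12.8%, and TATAAA in 4.35% and 11.6%. E-boxes were in promoters of Slc25a1, Slc25a13, Slc25a14, Slc25a15, Slc25a31, Slc25a33 and Slc25a36. Of these, 4 were highest in plive-Con 4, beside 18 of all 41 tested members (43.9%), and Slc25a31 had too few counts to test. Whether the motif goes with that pattern was not tested. The NRF1 motif was in none of the members' windows and in 1.42% of all. The comparison took in all protein-coding promoters, not only those of genes tested in these livers. Whether the contrasts are particular to the carriers was not tested. A match is a run of letters and says nothing on binding, and a window without a match lacks only those letters.

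Slc25a29 and Slc25a47 are neighbours on chromosome 12, transcribed away from each other, with 162 bases between the 2 genes in the deposited coordinates. The RefSeq starts behind the sequences above differ from this, since the 2 windows lie 14752 bases apart on GRCm38.p6, so the Slc25a47 window is not the stretch between the deposited genes. Both were highest in plive-Con 4, and their levels differed by far, with 0.77 FPKM for Slc25a29 and 219 FPKM for Slc25a47 over the 8 livers. The other neighbouring members are Slc25a43 and Slc25a5 on chromosome X (18448 bases apart), Slc25a41 and Slc25a23 on chromosome 17 (2056 bases) and Slc25a54 and Slc25a24 on chromosome 3 (6461 bases), each an untested gene beside a tested one.

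Related members were also set against each other within each liver. Means and SDs are of the ratios, and the exact permutation was of their log2 values. The ratio of Slc25a5 to Slc25a4 in FPKM was 44.3 ± 10.1 with plive-Tet1 and 47.1 ± 9.82 with plive-Con (SD, n = 4 each, exact permutation p = 0.657), and that of Slc25a13 to Slc25a12 was 17.9 ± 2.11 with plive-Tet1 and 20.1 ± 5.15 with plive-Con (exact permutation p = 0.514). Slc25a39 exceeded Slc25a40 by 411 ± 118 times with plive-Tet1 and 432 ± 55.4 times with plive-Con (exact permutation p = 0.771). The 2 mitoferrins were nearly equal: Slc25a28 over Slc25a37 was 0.966 ± 0.0798 with plive-Tet1 and 0.846 ± 0.0600 with plive-Con (exact permutation p = 0.0857, 0.457 adjusted over 8 pairs). The urea cycle carrier Slc25a15 over Slc25a29 was 144, 97.0, 61.8 and 197 in the plive-Tet1 livers, against 68.3, 61.4, 69.9 and 67.7 in the plive-Con livers (exact permutation p = 0.114, 0.457 adjusted over 8 pairs). Here 3 plive-Tet1 livers lay above all plive-Con livers and the plive-Con livers lay close together. The ratio rests on the low counts of Slc25a29, 18 to 46 in a plive-Tet1 library, and is not separate from its log2 fold change. For Slc25a25 over Slc25a24 (13.8 ± 4.25 with plive-Tet1 and 19.0 ± 7.59 with plive-Con), Slc25a33 over Slc25a36 (25.7 ± 3.86 with plive-Tet1 and 31.3 ± 15.9 with plive-Con) and Slc25a3 over Slc25a5 (0.297 ± 0.0250 with plive-Tet1 and 0.299 ± 0.0443 with plive-Con), the exact permutation p was 0.286, 0.714 and 1.00. The pairs were chosen after the values were seen, and no pair had an exact permutation p under 0.05.

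**Figure D5:**
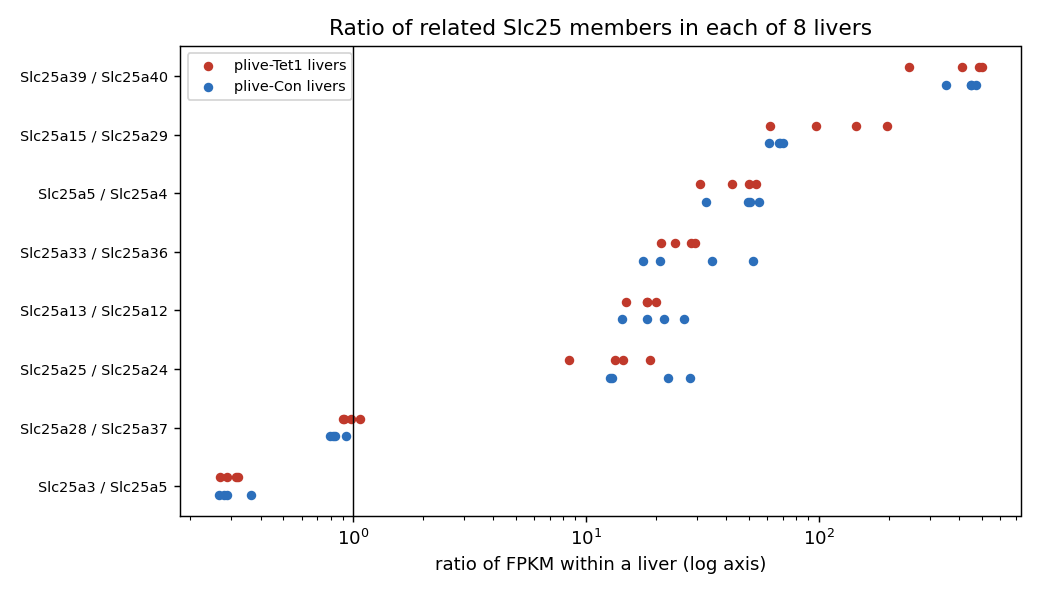
Ratio of FPKM between 2 related Slc25 members within each liver (log axis), for 8 pairs, with 1 point per liver and plive-Tet1 livers above plive-Con livers in each pair. Slc25a39 is 244 to 504 times as high as Slc25a40 in every liver, and the Slc25a15 to Slc25a29 ratio spreads from 61.8 to 197 in plive-Tet1 livers and from 61.4 to 69.9 in plive-Con livers. Slc25a29 had 18 to 65 counts in a library.

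The genes most like the 3 members with the smallest p were found by Pearson's r of log2 CPM over the 8 livers, as a description. For Slc25a37 they were Slc12a9 (0.963), Edc4 (0.925) and Ccdc85b (0.920). The list for Slc25a29 was Sox12 (0.981), Pitpnm2 (0.970) and Tm6sf2 (0.970), and that for Slc25a48 was Dcxr (0.978), Cry2 (0.976) and Psmb4 (0.965). The genes were picked as the 3 highest r among all tested genes for each member, and each r rests on the same 8 libraries. plive-Con 4 was the highest liver for Slc25a29 and for Slc25a48.

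Other genes of the same pathways gave 0 calls in 59 tested genes by edgeR and by DESeq2, and 1 gene had an unadjusted p under 0.05 by each tool, which was Mpc2 by edgeR. Log2 fold changes below 0 were found for 46 of the 59, beside 48% of all tested genes. The count was 40 with library totals in place of TMM scaling (beside 38.3% of all tested genes). It was 26 without plive-Con 4 (beside 48.4%). The 4 carnitine shuttle genes were all below 0 (2 of 4 without plive-Con 4), as were the 6 urea cycle genes (6 of 6 also without plive-Con 4). With all livers, library totals in place of TMM scaling left the urea cycle genes at 6 of 6. By limma on log2(FPKM + 0.5) 5 of 6 were below 0. Of the malate-aspartate shuttle enzymes 4 of 4 were below 0 (3 with library totals, 1 without plive-Con 4), and of the genes for the import of carriers 10 of 11 (8 with library totals, 6 without plive-Con 4). Got1, the cytosolic aspartate aminotransferase that works with Slc25a13 and Slc25a11, had 66.1, 72.2, 99.8 and 102 FPKM in the plive-Tet1 livers, against 80.2, 68.1, 79.0 and 258 FPKM in the plive-Con livers. One liver, plive-Con 4, stood far above the other 7, and the log2 fold change was -0.57 ± 0.37 (edgeR, SE). Mpc2, a subunit of the mitochondrial pyruvate carrier, which is not a Slc25 protein, had 16.8, 15.2, 15.03 and 17.5 FPKM in the plive-Tet1 livers, against 15.4, 19.7, 19.90 and 23.1 FPKM in the plive-Con livers. The 3 highest livers for Mpc2 were plive-Con livers and plive-Con 1 lay among the plive-Tet1 livers, and its log2 fold change was -0.32 ± 0.14 (edgeR, SE, unadjusted p = 0.0411, adjusted p = 1.00).

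In the remaining lists no gene had an unadjusted p under 0.05 by edgeR, and the log2 fold changes given next are of those with the smallest p and of Ucp2. In the carnitine shuttle Slc22a5, which takes carnitine into the cell, had -0.44 and Crat, carnitine acetyltransferase, had -0.45. The urea cycle gene Asl, argininosuccinate lyase, had -0.40. Of 8 citrate and dicarboxylate enzymes 5 were below 0, and Cs, citrate synthase, had 0.21. In the one-carbon and glycine list 3 of 6 were below 0, Mthfd2 had 0.53 and Mthfd1l -0.46. Iron and heme genes were below 0 in 6 of 8 cases, with -0.23 for Ppox and 0.26 for Alas2, the red cell enzyme of heme synthesis. Porins (2 of 3 below 0), sideroflexins (2 of 4) and the uncoupling protein and carrier homologue genes (2 of 3, Ucp2 at -0.05 and Mtch1 at -0.18) lay close to 0. plive-Con 4 was the highest liver in CPM for 38 of the 59 genes (64.4%, beside 18.2% of all tested genes). It was the lowest for 3, beside 19.8% of all tested genes.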

How the data were processed

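RNA of mouse liver was sequenced as paired reads in 8 libraries, per the labels' protocols. Per the submitters' processing notes, reads were handled with cutadapt 1.9.1, HISAT2 2.2.1 and HTSeq 0.6.1 on GRCm39. These sources do not state the annotation release, the strand setting or how reads on overlapping genes were counted. The authors deposited 1 table with a read count and an FPKM per gene and library, per the file headers. The deposited FPKM equals the count scaled by exonic length and library total to within 0.005.

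Groups came from the sample titles, with 4 libraries each. Counts were tested with edgeR 4.0.16 (quasi-likelihood, filterByExpr, TMM scaling, group only, two-sided) in R 4.3.3, with Benjamini-Hochberg adjustment over 14533 genes at 0.05. limma 3.58.1 and DESeq2 1.42.0 served as alternatives. FPKM sums, shares of counts, ratios and single members were tested by exact permutation over the 70 assignments, two-sided, with a smallest p of 0.0286. Sums and shares were permuted without logs, ratios as log2 ratios and single members as log2(FPKM + 0.5). The FPKM scale for limma was log2(FPKM + 0.5). The code was tested on simulated data. In none of the 28 pairs of libraries did the counts agree within sampling noise (smallest chi-square per degree of freedom 12.9).

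Values per liver are given for the 10 most abundant members, for the 6 tested members with the smallest p in each direction, and for Slc25a30, Slc25a32, Slc25a34 and Slc25a51, chosen after their values were seen. Up to 3 genes were named per list of other genes. The members and lists were chosen with earlier results of these data known. One member and 1 red cell marker enter the counts, sums and tests across genes, but their own values are not reported here, and the member is left out of the member plots and of the search for outlying livers. Promoters are RefSeq's on GRCm38.p6, matched by symbol for 36 members. Those without an entry included Slc25a2, Slc25a26, Slc25a27, Slc25a32, Slc25a35, Slc25a37, Slc25a41, Slc25a44, Slc25a46 and Slc25a51. Counting error limits the low members most, since Slc25a29 had 287 counts in all libraries and Slc25a5 far more.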

Additional observations from a re-analysis of the deposited data

Results flagged for a closer look

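In 4 of 84 groups of 4 livers, 1 liver lay far from the other 3, measured as the gap to its nearest neighbour over the whole range of the group (Dixon's test). Chance marks about 5% of groups. Slc25a15, the ornithine carrier, was 84.6 FPKM in plive-Tet1 4, against 55.6 to 59.0 FPKM in the other plive-Tet1 livers. The other 3 were in plive-Con 4: Slc25a51, the NAD carrier, at 25.1 FPKM against 11.1 to 13.3 FPKM in the other plive-Con livers, Slc25a29 at 1.43 FPKM against 0.77 to 0.84 FPKM, and Slc25a38, the glycine carrier, at 5.02 FPKM against 5.66 to 5.77 FPKM. No cause was tested.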

How the results depend on the processing

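No Slc25 member passed the adjusted threshold under any alternative run. The number of genes past it was 0 with edgeR and TMM, 11 with DESeq2 and 132 without a filter on low counts, where 28149 genes were tested. The members at an unadjusted p under 0.05 were 3, against 5 without the filter (with Slc25a10 and Slc25a20 added), 1 on each log2(FPKM) scale (Slc25a29) and 0 to 4 when 1 library was left out. Of 432 recomputed log2 fold changes of 24 members, 420 kept their sign and 12 turned. Slc25a15 was 0.022 on every log2(FPKM) scale. With 1 library left out, log2 fold changes ranged from -0.24 to 0.22 for Slc25a15, -0.50 to 0.12 for Slc25a47, -0.49 to 0.054 for Slc25a22, -0.44 to 0.019 for Slc25a20, -0.61 to 0.28 for Slc25a34, -0.67 to 0.18 for Slc25a32, -0.37 to 0.13 for Slc25a51 and -0.063 to 0.12 for Slc25a45. The log2 ratio of the summed FPKM ranged from -0.17 to 0.037 and the members' median from -0.15 to -0.019. Apart from Slc25a15 on the log2(FPKM) scales, the turned signs came from leaving out 1 library, and the cause was not tested.

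Libraries with the same replicate number did not deviate together (correlations 0.0084, -0.020, 0.069 and -0.040), while those with unlike numbers ranged from -0.194 to 0.315. With 4 libraries per group this gave no sign of a pairing by number but cannot exclude one. With the replicate block, 0 genes passed, 3 members had an unadjusted p under 0.05, 31 members lay below 0 and the median was -0.089.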
